A study of Mus musculus with 18 samples.

Results

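The genes of interest encode subunits of voltage-gated ion channels and of their nearest relatives. They were taken by name: every probe set with a single gene symbol that begins with Kcn, Clcn, Cacn or Scn followed by a digit, apart from Cacng1. This gave 84 probe sets for 65 genes, out of 12488 probe sets in the table and 10833 with a single symbol. Of these, 51 probe sets for 42 genes lay above the 40th percentile of the array in at least 3 of the 18 arrays and were tested. The other 33 were left out of the main tests, and 23 genes had no tested probe set. The name of the group is wider than its members. The Kcnj inward rectifiers, the Kcnk leak channels and the calcium-activated Kcnn channels carry potassium without a voltage sensor of the usual kind, and Clcn3 to Clcn7 are mostly chloride-proton exchangers of internal membranes.

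Voltage-gated channels open when the voltage across the membrane changes, and a pore-forming alpha subunit carries the ions while smaller subunits set its location and timing. In skeletal muscle the L-type calcium channel acts mainly as the voltage sensor that opens the ryanodine receptor, and a chloride conductance steadies the resting membrane. In heart muscle calcium enters through a different L-type channel at each beat, and several potassium currents end the action potential in turn.

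RNA of leg muscle, of heart and of extraocular muscle, which turns the eyeball, had been hybridised to 18 Affymetrix mouse arrays, with 3 arrays in each of 6 groups. All tissue was 8 weeks of age, and each tissue came from mdx mice, labelled as the control, and from dko mice. Mdx mice carry a mutation of dystrophin, the protein that ties the muscle membrane to the cytoskeleton. By usual usage dko mice lack dystrophin and its relative utrophin, which the labels do not spell out, so that neither group was healthy and no dystrophin-positive muscle was compared here. Whether the 3 replicates of a group were separate animals is not labelled, so that every p-value below is set against a spread between arrays that may be technical.

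Whole muscle was used, so these arrays cannot tell fewer cells of a type from less RNA per cell. Utrn probe set 92507_at was lower in every dko array than in every mdx array in 3 of 3 tissues, and 92508_s_at in 2 of 3. In leg 92508_s_at overlapped, at 437.8, 624.2 and 738.2 in mdx and 645.7, 430.6 and 233 in dko. The fast skeletal marker list summed to 75678 to 283475 intensity units in leg and 143193 to 259085 in extraocular muscle, against 13197 to 23014 in heart, and 7 of its 8 genes were lower in heart than in leg. The exception was Acta1, skeletal actin, which read 256.1, 247.7 and 6656.3 in mdx leg and 13100.4 to 14479.6 in mdx heart. In dko its ranges overlapped, at 1281.8, 1915 and 20656.3 in leg and 4861.3 to 6806.6 in heart. Of the heart muscle markers, 6 of 8 were higher in heart than in leg. Myh13 was not analysed here as an extraocular marker, and the extraocular markers Myh3 and Myh8 were both higher in extraocular muscle than in leg. Arrays numbered 3 stood apart, with medians of 525.6 to 573.75 intensity units against 612.6 to 671.8 on arrays numbered 1 or 2, so the count of calls is also given with the replicate number as a block.

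The first comparison asks which channel genes separate heart from skeletal muscle. Differences were taken on the log2 scale after an offset of 166.7 intensity units was added, and folds follow from them, so that the change of a dim probe set is understated. Heart and leg differed in 18 of the 51 tested members, or 35.3%, with limma and a Benjamini-Hochberg adjusted p under 0.05 over all 8888 tested probe sets. Over all tested probe sets 19.1% passed. Of the members, 10 were higher in heart (19.6%, against 9.56% of all probe sets) and 8 were lower (15.7%, against 9.5%). With the replicate block 25 members passed, against 35.5% of all probe sets, and these included each of the 18. The median log2 difference was 0.10 over the members and 0.0042 over all tested probe sets. The arrays of heart and leg did not overlap at all in 14 members (27.5%, against 11.9% of all probe sets). Each tissue had 6 arrays, 3 of each genotype.

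The calcium channel pores changed places between the tissues. Cacna1s encodes the L-type alpha subunit of skeletal muscle, the voltage sensor of excitation-contraction coupling. Its probe set 101128_at read 9161.4 at the lowest, 11227 at the median and 17882.7 at the highest of the 6 leg arrays, and 199.8, 419.25 and 741.7 in heart. Every leg array was above every heart array, and the log2 difference was -4.38 ± 0.241 (SE), 20.8-fold lower in heart (limma adjusted p 1.56e-09). Cacna1c encodes the L-type alpha subunit of heart. It ran the other way, at 5540.9, 7171.7 and 8419.2 in heart against 388.3, 795.2 and 1057.7 in leg. The groups did not overlap, and heart was 7.97-fold higher (log2 2.99 ± 0.167, adjusted p 1.89e-09). Cacnb2, the beta subunit that brings the cardiac pore to the membrane, read 3598.7, 4153.6 and 5453.2 in heart against 316.5, 568.2 and 685.4 in leg. It was 6.45-fold higher in heart, again without overlap (adjusted p 3.28e-09). Cacna2d1, an extracellular auxiliary subunit, was lower in heart by a smaller margin (log2 -1.12 ± 0.375, adjusted p 0.0487). Its groups overlapped, at 308.1 to 1766.3 in heart and 1170.1 to 4241.1 in leg.

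Cacna1s, Cacna1c and Cacnb2 differed between extraocular muscle and heart and were not called between extraocular muscle and leg. Cacna1s read 8213.5, 10346 and 16016.3 in extraocular muscle, 18.6-fold above heart (log2 4.21, limma adjusted p 2.96e-09). Against leg the log2 difference was -0.16 ± 0.241 and was not called. Cacna1c read 541.3, 699.85 and 738.3 in extraocular muscle, 8.62-fold below heart (log2 -3.11, adjusted p 1.38e-09), and Cacnb2 was 4.94-fold below heart (adjusted p 2.51e-08). Against leg their log2 differences were -0.11 ± 0.167 and 0.38 ± 0.158. Cacna2d1 was called in neither comparison, with log2 differences of -0.62 from leg and 0.50 from heart. The neuronal alpha subunit gene Cacna1b (98360_at) passed the filter but was called in none of the 3 comparisons of tissues. It was lowest on the array numbered 3 in all 6 groups. The T-type genes Cacna1g and Cacna1h, the pacemaker-type calcium pores of heart, stayed below the filter, with highest values of 380.7 and 362.8.

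**Figure D1:**
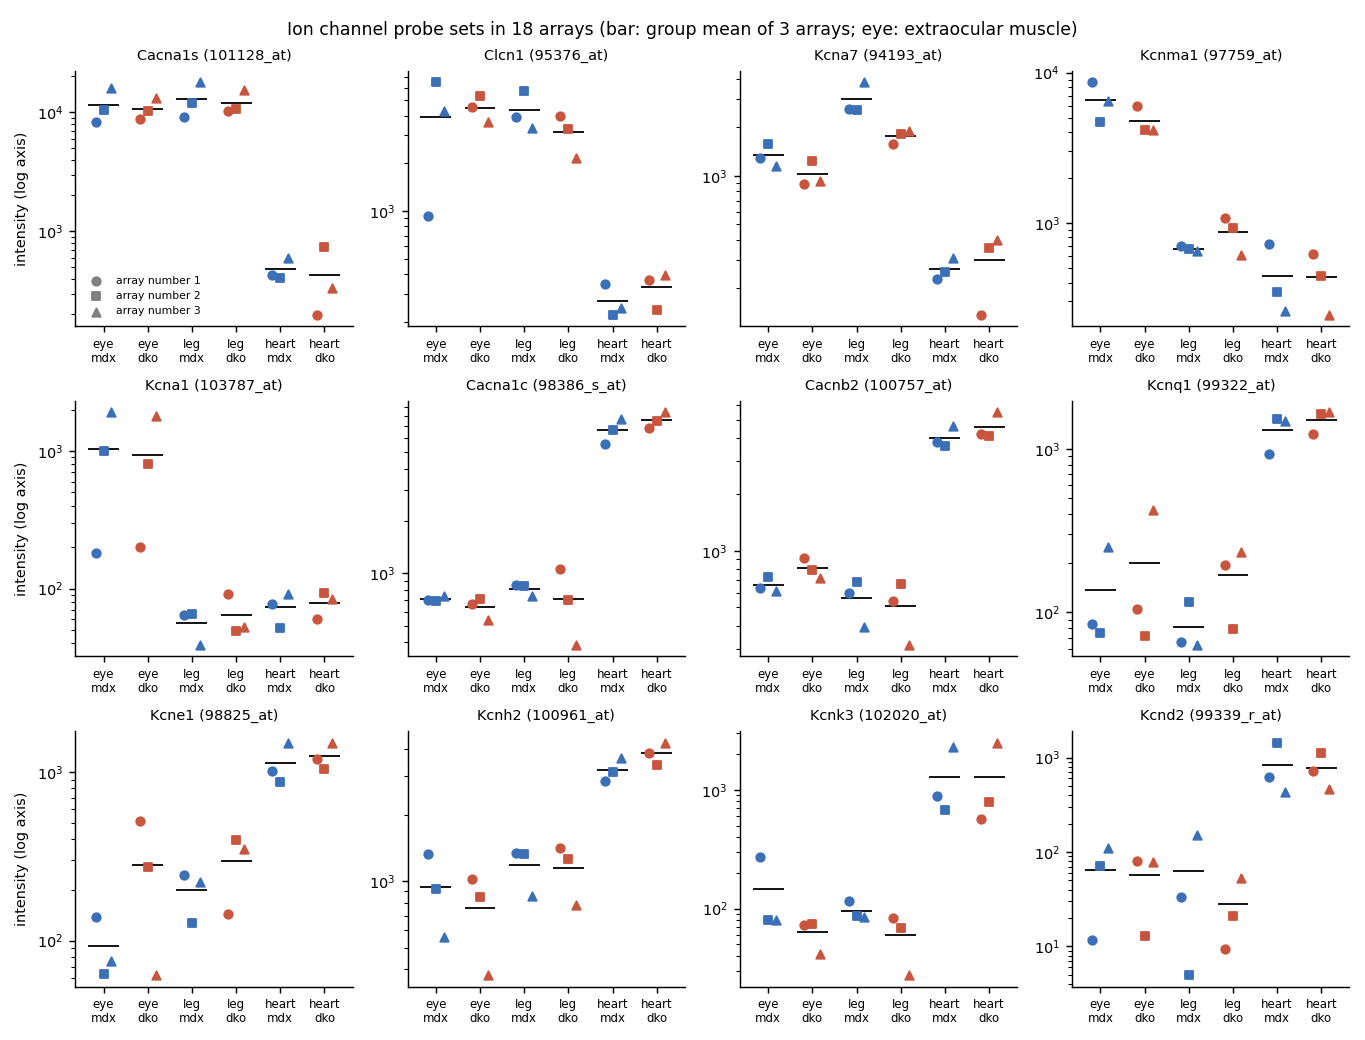
Intensity of selected channel probe sets on a log axis in each of the 18 arrays, by tissue, with mdx and dko arrays in different colours and the array number as the marker shape. Cacna1s, Clcn1 and Kcna7 lie lowest in heart, Cacna1c, Cacnb2, Kcnq1 (99322_at), Kcnh2 and Kcnk3 lie highest in heart, and Kcnma1 and Kcna1 lie highest in extraocular muscle.

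The chloride channel of the muscle membrane followed Cacna1s. Clcn1 encodes the skeletal muscle chloride channel, whose loss causes myotonia. Its probe set 95376_at read 2162.5, 3608.1 and 5714.1 in leg, against 222.3, 295.9 and 392 in heart. The groups did not overlap, and heart was 8.09-fold lower (log2 -3.02 ± 0.334, limma adjusted p 5.47e-06). In extraocular muscle it read 924.7, 4408 and 6490.7, of which the lowest was the mdx array numbered 1, and it was 8.25-fold above heart (adjusted p 6.41e-06). The extraocular and leg ranges overlapped, and that difference was 0.03 ± 0.334 on the log2 scale. The second Clcn1 probe set, 102622_r_at, stayed below the filter, with a highest value of 448.2, and did not back up these differences. The Clcn1 differences given here therefore rest on 95376_at alone.

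A potassium pore showed the same order with a further step between the skeletal muscles. Kcna7 encodes a delayed-rectifier alpha subunit of the Shaker type. It read 1571.3, 2221 and 3803.4 in leg, 893.7, 1196.4 and 1578.7 in extraocular muscle, and 137.9, 279.95 and 400.5 in heart. Heart lay below every array of both other tissues, while the lowest leg array, 1571.3, lay just under the highest extraocular array, 1578.7. Heart was 5.56-fold lower than leg (log2 -2.48 ± 0.169, limma adjusted p 1.9e-08). Extraocular muscle was 1.84-fold lower than leg (log2 -0.88 ± 0.169, adjusted p 0.00346) and 3.03-fold higher than heart (adjusted p 4.21e-06). Kcnd1, an A-type potassium alpha subunit, was 2.08-fold lower in heart than in leg (log2 -1.06 ± 0.319, adjusted p 0.0281). Its groups overlapped, at 84.7 to 486.7 and 118.9 to 1163.

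Promoter sequence from RefSeq (GRCm38.p6) was set beside these differences, since transcription in muscle is often tied to the E-box and to the site of MEF2. Windows ran from 250 bases before to 50 bases after an annotated start, and 52 of the 65 genes had at least 1 window. Shown are 3 of the 8 genes called lower in heart (Cacna1s, Clcn1 and Kcna7), 2 of the 10 called higher (Cacna1c and Kcnh2) and a gene called between the genotypes with the block (Kcne1l), each 5′ to 3′ on its own strand. Capitals mark the E-box CANNTG, which is its own reverse complement and so has the same matches on both strands, and the MEF2 motif, searched on both strands. CAGCTG, the E-box form favoured by myogenic factors, is counted within CANNTG. Positions are chr1:136052561-136052860 on the plus strand for Cacna1s, chr6:42286435-42286734 on the plus strand for Clcn1 and chr7:45405710-45406009 on the plus strand for Kcna7. They are chr6:119196360-119196659 on the minus strand for Cacna1c, the first of its 3 windows, chr5:24329542-24329841 on the minus strand for Kcnh2 and chrX:142306149-142306448 on the minus strand for Kcne1l.
Cacna1s: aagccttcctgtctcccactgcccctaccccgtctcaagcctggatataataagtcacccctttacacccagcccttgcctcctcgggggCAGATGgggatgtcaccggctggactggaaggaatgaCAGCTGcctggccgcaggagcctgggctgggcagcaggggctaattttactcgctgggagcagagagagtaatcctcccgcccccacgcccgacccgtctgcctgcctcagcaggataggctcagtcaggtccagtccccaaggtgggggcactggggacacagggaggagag
Cacna1c: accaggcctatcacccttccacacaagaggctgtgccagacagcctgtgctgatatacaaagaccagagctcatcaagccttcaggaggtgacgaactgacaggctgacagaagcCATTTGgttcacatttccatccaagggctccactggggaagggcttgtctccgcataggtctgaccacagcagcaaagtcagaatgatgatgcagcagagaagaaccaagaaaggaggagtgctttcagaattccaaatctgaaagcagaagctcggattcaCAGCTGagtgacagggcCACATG
Clcn1: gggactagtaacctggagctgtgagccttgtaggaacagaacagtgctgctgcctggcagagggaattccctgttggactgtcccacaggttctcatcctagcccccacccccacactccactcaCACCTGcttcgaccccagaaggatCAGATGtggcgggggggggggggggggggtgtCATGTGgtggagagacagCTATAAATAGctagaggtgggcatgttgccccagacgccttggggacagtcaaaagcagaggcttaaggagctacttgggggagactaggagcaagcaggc
Kcna7: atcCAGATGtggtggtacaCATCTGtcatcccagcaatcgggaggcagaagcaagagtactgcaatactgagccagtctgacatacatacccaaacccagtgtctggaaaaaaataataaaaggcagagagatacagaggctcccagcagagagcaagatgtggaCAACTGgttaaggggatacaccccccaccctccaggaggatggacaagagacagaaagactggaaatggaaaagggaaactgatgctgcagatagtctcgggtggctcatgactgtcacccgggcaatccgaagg
Kcnh2: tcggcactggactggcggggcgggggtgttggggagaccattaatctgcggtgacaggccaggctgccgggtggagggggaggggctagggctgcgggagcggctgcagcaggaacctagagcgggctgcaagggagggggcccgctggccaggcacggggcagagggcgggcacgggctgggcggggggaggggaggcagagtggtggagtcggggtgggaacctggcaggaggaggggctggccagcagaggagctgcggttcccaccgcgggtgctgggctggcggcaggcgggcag
Kcne1l: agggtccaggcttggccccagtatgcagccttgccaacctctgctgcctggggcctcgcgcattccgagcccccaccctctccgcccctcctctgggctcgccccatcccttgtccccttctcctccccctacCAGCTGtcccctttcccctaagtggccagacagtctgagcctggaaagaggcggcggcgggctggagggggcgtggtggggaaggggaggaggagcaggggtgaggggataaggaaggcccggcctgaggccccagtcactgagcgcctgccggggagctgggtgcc

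The Cacna1s window held 2 matches to CANNTG, 1 of them CAGCTG, and the Clcn1 window held 3 matches to CANNTG and 1 to the MEF2 motif. The Kcna7 window held 3 matches to CANNTG, Kcne1l held 1, a CAGCTG, and Kcnh2 held 0. The Cacna1c window shown held 3 matches to CANNTG, 1 of them CAGCTG. Of the genes called higher in heart than in leg 7 had a window and 5 of these held CANNTG, and the same counts, 7 and 5, held for the genes called lower. CAGCTG was found in 3 genes of each direction. Among all 32851 RefSeq windows of this length, 72.3% held CANNTG, 16.3% held CAGCTG and 3.19% held the MEF2 motif. Among the 69 windows of the channel genes the counts were 55 (79.7%), 22 (31.9%) and 3 (4.35%). A match describes the letters of the window and was not tested as a site.

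Of 13 tested probe sets of voltage-gated potassium alpha subunits, 4 were higher in heart than in leg, beside 9.56% of all probe sets. A further 2 were lower, beside 9.5%, and 7 were not called. Among the higher ones were Kcnq1 (by 1 of its 2 probe sets) and Kcnh2, both known from cardiac repolarisation. Kcnq1 encodes the pore of the slow delayed rectifier and Kcne1 the small subunit that joins it. Kcnq1 probe set 99322_at read 935.7, 1505.8 and 1673.8 in heart, 63.3, 97.5 and 233.1 in leg, and 71.5, 94.95 and 425.3 in extraocular muscle. Heart was 5.46-fold above leg (log2 2.45 ± 0.231, limma adjusted p 8.55e-07) and extraocular muscle 4.95-fold below heart (adjusted p 2.24e-06). Kcne1 read 877.9, 1120.9 and 1492.8 in heart, 127.1, 233.95 and 394.2 in leg, and 62.6, 106.9 and 509.1 in extraocular muscle. Its heart arrays lay above all the others, 3.31-fold above leg (adjusted p 5.78e-05) and 4.11-fold above extraocular muscle (adjusted p 1.35e-05). Kcnq1 99322_at was above the 40th percentile of the array in 6 heart arrays, 0 leg arrays and 1 extraocular array. Kcne1 was above it in 6, 1 and 1. Both therefore passed the filter only through heart, and their differences are from dim values. Kcnh2 encodes the pore of the rapid delayed rectifier. It was above the 40th percentile in all 18 arrays, at 2858.7 to 4266.4 in heart, 778.7 to 1422.2 in leg and 376.2 to 1338.4 in extraocular muscle. Heart was 2.79-fold above leg (log2 1.48 ± 0.224, adjusted p 0.000141) and 3.81-fold above extraocular muscle (adjusted p 1.26e-05), without overlap.

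Kcnd2 and Kcnk3 were also higher in heart, while their relatives were mixed. Of the 5 leak channel probe sets Kcnk3 alone was called, with a median log2 difference of -0.11 over the 5, and of the other A-type genes Kcnd1 was lower and Kcnd3 was not called. Kcnd2 encodes the alpha subunit of the fast transient outward current. Its probe set 99339_r_at read 436.5, 674.25 and 1436.4 in heart against 5, 27 and 152.4 in leg and 11.7, 74.7 and 109.4 in extraocular muscle. The log2 difference of heart from leg was 2.12 ± 0.247 (limma adjusted p 9.57e-06). Kcnd2 99339_r_at and Kcnk3 were above the 40th percentile of the array (319.2 to 420.2) in 6 of 6 heart arrays and 0 of the other 12, so they were tested only because of heart, and their differences are from dim values. Kcnk3, an acid-sensitive leak channel, read 895.1, 683.4 and 2310.2 in mdx heart and 568.6, 797.3 and 2502.7 in dko heart, with the array numbered 3 the highest in both. In leg it read 27.6 to 115.2 and in extraocular muscle 41.7 to 274.7, so that heart did not overlap either. Heart was 5.23-fold above leg (log2 2.39 ± 0.302, adjusted p 2.43e-05) and extraocular muscle was 4.85-fold below heart (adjusted p 5.11e-05). Kcna5, the ultrarapid delayed rectifier of atrium and of vascular smooth muscle, was 2.2-fold above leg in heart by 102295_at (adjusted p 0.00166). Its second probe set, 161775_f_at, stayed below the filter, with a log2 difference of 0.02. Kcnj8, the pore of the ATP-sensitive channel of vessels, was 1.82-fold above leg (adjusted p 0.00292). Of the 6 endothelial marker genes 4 were also higher in heart than in leg (median log2 0.88), with sums of 15006.8 to 18295 in heart and 8020.3 to 10561.9 in leg. Of the 6 macrophage genes 4 were lower in heart (median log2 -1.07). Of the smooth muscle genes 0 of 6 were called by limma without the block, and with it 3 were higher and 1 was lower. The part of these cells in Kcnj8 and Kcna5 was not tested.

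The remaining calls between heart and leg came from calcium-activated, chloride and auxiliary genes. Kcnma1, the large-conductance calcium-activated potassium pore, was 1.59-fold lower in heart than in leg (limma adjusted p 0.044). Clcn5, an endosomal exchanger, was 2.72-fold lower in heart by probe set 101913_at (log2 -1.44 ± 0.278, adjusted p 0.00129). Its other probe set, 161451_r_at, had a log2 difference of -0.08 ± 0.335. Kcne1l, an auxiliary potassium channel subunit also known as Kcne5, was 3.46-fold lower in heart (log2 -1.79 ± 0.314, adjusted p 0.000583), with most of the difference in dko mice, where it was -2.76 against -0.81 in mdx mice. Clcn5 101913_at and Kcne1l were each above the percentile of the filter in 4 extraocular, 4 leg and 0 heart arrays. Both were therefore tested only through extraocular muscle and leg, and their differences are from dim values. Clcn4, an intracellular exchanger, was 1.4-fold higher in heart by 104704_at (adjusted p 0.0145), and 99672_at gave a log2 difference of 0.39 that passed with the block (adjusted p 0.0114). The 4 Clcn3 probe sets gave log2 differences of 0.07 to 0.40, of which none was called without the block and 1 (94463_at) with it.

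The calls of 3 members between heart and leg were lost when single arrays were left out. Cacna2d1 lost its call when any of 9 of the 12 arrays was left out in turn, with adjusted p of 0.0594 to 0.125: the 3 mdx heart arrays, the 3 dko leg arrays, mdx leg numbers 2 and 3, and dko heart number 1. Kcnma1 lost it without any of 9 arrays (0.0645 to 0.113): the 3 mdx leg arrays, dko leg numbers 1 and 2, and numbers 2 and 3 of mdx and of dko heart. Kcnd1 lost it without any of 8 arrays (0.0556 to 0.0752): numbers 1 and 2 of mdx leg, of dko leg and of dko heart, and numbers 2 and 3 of mdx heart.

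**Figure D2:**
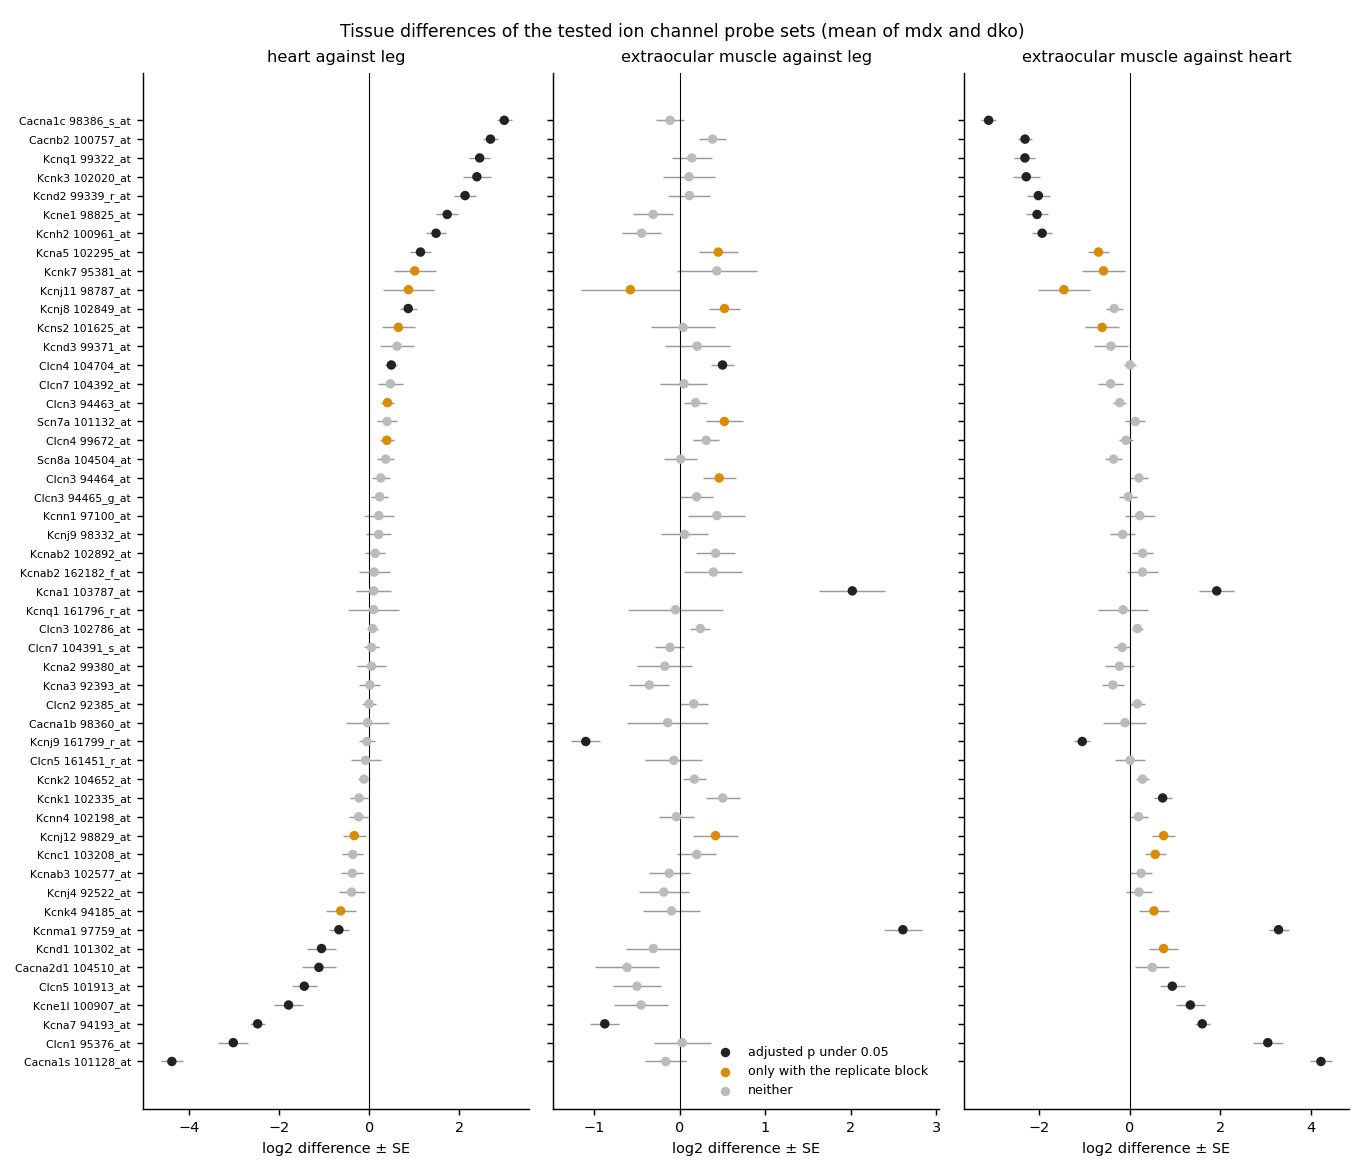
Log2 difference ± SE of the 51 tested probe sets in the 3 comparisons of tissues, ordered by the difference of heart from leg, with black for an adjusted p under 0.05, orange for a call only with the replicate block and grey for neither. Heart stands apart from leg and extraocular muscle at both ends of the order, with 18 and 16 black points, while extraocular muscle and leg have 5.

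Extraocular muscle and leg differed in 5 of 51 members, or 9.8%, against 7.74% of all tested probe sets. The share of members was near that background. Higher in extraocular muscle were 3 members (5.88%, against 4.51%) and lower were 2 (3.92%, against 3.23%). With the replicate block 11 members passed, against 20% of all probe sets, and they included these 5. The median log2 difference was 0.06 over the members and -0.0094 over all probe sets. The arrays of both tissues did not overlap in 2 members (3.92%, against 5.29%), Kcnma1 and Kcna1. The 5 were Kcnma1, Kcna1 and Clcn4 (104704_at), which were higher in extraocular muscle, and Kcna7 and Kcnj9 (161799_r_at), which were lower.

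Kcnma1 had the largest difference of the members in this comparison. It encodes a potassium pore opened by voltage and calcium together, and it is abundant in smooth muscle. It read 8636.2, 4723.6 and 6482.5 in mdx and 5989.4, 4138.4 and 4138.7 in dko extraocular muscle. Leg arrays gave 704.4, 673.7 and 647.3 in mdx and 1082.9, 926.8 and 613.1 in dko, and the 6 heart arrays lay between 245.7 and 729.5. Every extraocular array lay above every other array, at 6.1 times the level of leg (log2 2.61 ± 0.221, limma adjusted p 2.1e-06) and 9.72 times that of heart (log2 3.28, adjusted p 2.06e-08). The difference from leg was called within mdx arrays (log2 2.97) and within dko arrays (2.25), and it was the only member called in each.

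Kcna1 encodes a low-threshold delayed-rectifier alpha subunit known from axons, where it lies beside the nodes under the myelin. It read 182.1, 1003.1 and 1906.7 in mdx extraocular muscle and 200.4, 804.3 and 1793.6 in dko extraocular muscle, on arrays numbered 1, 2 and 3. The other 12 arrays lay between 39.1 and 92.5. The extraocular arrays were all above the rest but spread widely by array number, in the same order in both genotypes. Of the extraocular arrays 4 were above the 40th percentile, and 0 of the other 12 were, so Kcna1 was tested only because of extraocular muscle. The log2 difference was 2.02 ± 0.386 from leg (4.05-fold, limma adjusted p 0.00322) and 1.92 from heart (3.78-fold, adjusted p 0.00232). Without the arrays numbered 3 the difference from leg was 1.40 (adjusted p 0.059).

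Marker lists of other cells and fibres were mixed between extraocular muscle and leg. The Schwann cell and myelin list, with probe sets for 3 of its 6 genes, summed to 15037.9 to 24649.5 in extraocular muscle, 3167.6 to 4424.5 in leg and 3261.3 to 5306.4 in heart. Mbp and Pmp22 were higher than in leg (log2 2.45 and 2.30), and Mag had a difference of 0.27. The smooth muscle list, with 6 of 6 genes, summed to 14529.3 to 36476.3 in extraocular muscle, 13358.6 to 22451.2 in leg and 16691.1 to 23481.4 in heart. Of these genes Myh11 (log2 2.11) and Tagln (1.05) were higher than in leg, and the other 4 were not called. Myh11 read 1462.1, 4513.3 and 8437.5 in mdx and 1910.9, 3207.2 and 5407.9 in dko extraocular muscle. Like Kcna1, Myh11, Pmp22, Cnn1 and Smtn rose with the array number there in both genotypes, and Smtn did so in leg as well. Mbp, Tagln and Acta2 rose in mdx extraocular muscle only, and Des, Mag and Kcnma1 in neither genotype. Variation with the number was widespread: the array numbered 3 was the highest in all 6 groups for 12.3% of all tested probe sets. The neuron list was not higher in extraocular muscle, at 4243.2 to 6069.4 against 5419.2 to 8258.3 in leg, and 6 of its 8 genes stayed below the filter. The slow-fibre list had 3 of 5 genes higher than in leg (5 with the block, median log2 1.54). The macrophage list had 3 of 6 lower (median log2 -0.64), and the endothelial list had 2 of 6 higher (median log2 0.32). The part of these cells and fibres in Kcnma1 and Kcna1 was not tested.

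The remaining extraocular calls were small or rested on a single probe set. Kcnj9, a subunit of G protein-gated inward rectifiers, was 2.14-fold lower than in leg by 161799_r_at (log2 -1.10 ± 0.172, limma adjusted p 0.000695). Extraocular arrays read 107.5, 115 and 334.3 in mdx and 93.3, 166.1 and 94.5 in dko, and leg arrays 330.9 to 745.8, so that the ranges overlapped only through the mdx extraocular array numbered 3. Probe set 161799_r_at was above the percentile of the filter in 0 extraocular, 4 leg and 5 heart arrays. It was therefore tested only through leg and heart, and its difference is from dim values. The other Kcnj9 probe set, 98332_at, gave 0.06 ± 0.273. Clcn4 was 1.41-fold higher (104704_at, adjusted p 0.0268), and the call was lost without any of 7 arrays (0.0535 to 0.072): numbers 2 and 3 of mdx and of dko extraocular muscle, mdx leg number 1, and dko leg numbers 1 and 3. Passing only with the block were Kcnj12, Kcna5, Clcn3 (94464_at), Scn7a and Kcnj8, with log2 differences of 0.42 to 0.52, and Kcnj11 at -0.58. The Kcnj12 difference of 0.42 became 0.26 without mdx leg number 1. That of Kcnj11 became -0.22 without mdx leg number 3, -0.34 without dko leg number 3 and -0.35 without mdx extraocular number 1. It became -0.98 and -0.91 without the mdx and the dko extraocular array numbered 3.

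Extraocular muscle and heart differed in 16 of 51 members, or 31.4%, against 15.2% of all tested probe sets. These were 8 higher and 8 lower (15.7% each, against 7.91% and 7.31%). With the replicate block 24 members passed, against 30.1% of all probe sets, and they included these 16. The groups did not overlap in 13 members (25.5%, against 10.4%), and the median log2 difference was 0.01 over the members and -0.02 over all probe sets. This comparison and that of leg share the heart arrays, so their lists are not independent. Beside the members given above, the higher ones were Kcne1l (2.53-fold, adjusted p 0.00747), Clcn5 by 101913_at (1.92-fold, 0.0303) and Kcnk1, a weakly conducting leak channel (1.66-fold, 0.02). Kcnj9 was lower by 161799_r_at (2.06-fold, 0.000415). Kcne1l and Clcn5 101913_at were above the percentile of the filter in 0 heart arrays, and Kcnj9 161799_r_at in 0 extraocular arrays. The differences of these probe sets are therefore from dim values. Clcn5 lost its call without any of 6 arrays (0.0538 to 0.0859): number 3 of mdx and numbers 2 and 3 of dko extraocular muscle, mdx heart number 1, and dko heart numbers 1 and 2. Kcnk1 lost it without any of 4 arrays (0.0509 to 0.0556): dko extraocular number 2, mdx heart number 1, and dko heart numbers 2 and 3.

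Genes known from muscle and heart physiology were often dim or not called. Sodium channels start the action potential, and of their 8 alpha subunit probe sets only Scn7a and Scn8a (104504_at) were tested, with 0 called in any tissue comparison without the block. Scn7a, a sodium sensor rather than a fast channel, read 124.7 to 431.9 in extraocular muscle, 73.9 to 309.8 in leg and 107.8 to 518.3 in heart. Scn4a, the main sodium channel pore of skeletal muscle, and the beta subunit gene Scn4b were not analysed here. Kcnj2, the main inward rectifier of resting muscle, read at most 220 in any array and was not tested. Kcnd3 had log2 differences of 0.62 ± 0.379 (heart from leg) and 0.20 ± 0.379 (extraocular from leg), neither called. Kcnc1, a fast delayed rectifier, and Kcnj12, an inward rectifier, passed between extraocular muscle and heart only with the block (log2 0.56 and 0.75, adjusted p 0.0103 and 0.000181).

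Several members varied with the array number in every tissue. Over the 51 tested members the median share of the variance within groups that the number accounted for was 52%, against 58.93% over all tested probe sets. The array numbered 3 was the lowest in all 6 groups for 6 members (11.8%, against 18.1%) and the highest in all 6 for 2 (3.92%, against 12.3%). Kcnj11, the pore of the ATP-sensitive channel of muscle and heart, was highest there. It read 466.5, 562 and 3496.6 in mdx extraocular muscle, 1265.5, 708.1 and 4698.6 in mdx leg, and 2315.5, 1767.8 and 6037.9 in mdx heart. Dko arrays gave 468.5, 507.7 and 2477.4, then 1255.5, 663.6 and 2764.7, then 1598.7, 2256.6 and 6034.5. Within each number and genotype heart was above leg and leg above extraocular muscle, although the ranges of the tissues overlapped. The log2 difference of extraocular muscle from heart was -1.45 ± 0.574, with a limma adjusted p of 0.115 without the block and 2.81e-05 with it.

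The probe sets of Kcnq1 gave different pictures. The heart-high order of 99322_at was absent from 161796_r_at, which read 3903.8, 1893.2 and 670.8 in mdx extraocular muscle, 4052, 2415.5 and 883 in mdx leg and 2914.4, 2213.3 and 1098.4 in mdx heart. In every group the array numbered 1 was the highest and the array numbered 3 the lowest, and the number accounted for 95.97% of its variance within groups. Its log2 difference of heart from leg was 0.10 ± 0.558. A gene-level value for Kcnq1 was therefore not formed.

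**Figure D3:**
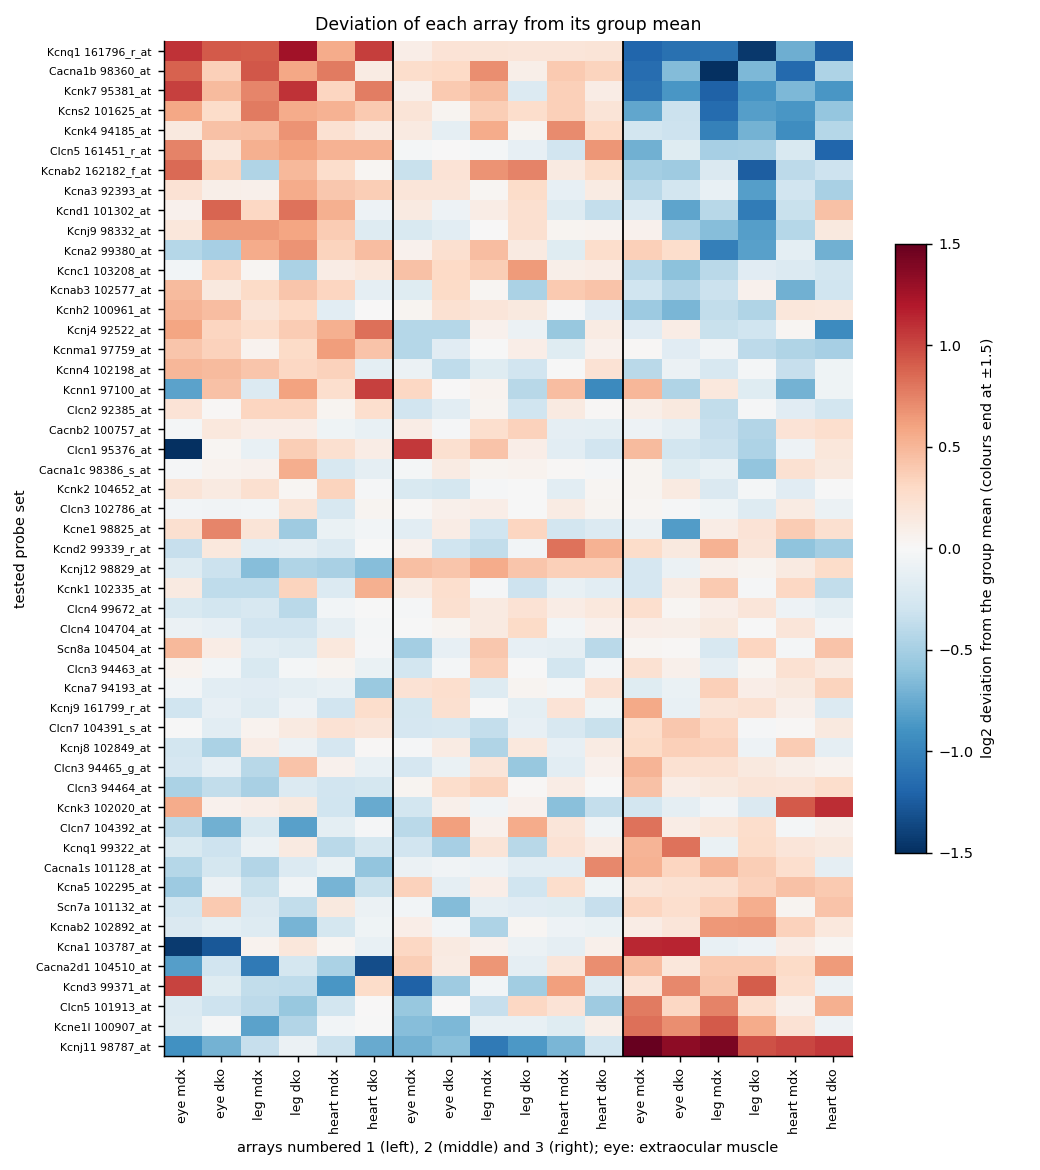
Log2 deviation of each array from the mean of its group for the 51 tested probe sets, with arrays ordered by number (1, 2, 3) and then by group, and probe sets ordered by their deviation on the arrays numbered 3. Kcnq1 161796_r_at at the top is low and Kcnj11 at the bottom is high on all 6 arrays numbered 3.

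Of 46 listed genes that work with these channels in muscle excitation, 30 had a probe set and 28 were tested. Between heart and leg 8 were higher and 10 lower, beside 9.56% and 9.5% of all probe sets, with a median log2 difference of -0.04. Ryr1, the calcium release channel coupled to Cacna1s, had a log2 difference of -6.24 ± 0.160, and Ryr2, its cardiac counterpart, of 6.12 ± 0.209. The sodium-calcium exchanger Slc8a1 was higher in heart (3.93), and Chrna1, the acetylcholine receptor subunit of the endplate, was lower (-4.23). Between extraocular muscle and leg 2 of 28 partners were higher and 1 was lower, beside 4.51% and 3.23% of all probe sets: Chrne (0.92), Chrna1 (0.55) and Atp1b2 (-1.88). Between extraocular muscle and heart 9 were higher and 6 lower, beside 7.91% and 7.31%.

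Dko and mdx were compared in each tissue to ask whether the additional loss of utrophin went with other channel levels. No member was called in any tissue by limma without the block. In extraocular muscle 0 of 51 passed, against 0.0225% of all probe sets, and 2 had an unadjusted p under 0.05, beside 196 of all 8888. In leg 0 passed, against 0.0563%, and 4 had such a p, beside 556 of 8888. In heart 0 passed, against 0% of all probe sets, and 2 had such a p, beside 130 of 8888. Over the mean of the 3 tissues 0 passed, against 0.09%, and 4 had such a p, beside 440 of 8888. With the replicate number as a block within tissue, 1 member passed in extraocular muscle (against 0.158%), 2 in leg (1.2%), 0 in heart (0%) and 1 over the mean (0.788%). In heart 3 members then had an unadjusted p under 0.05, beside 494 of all 8888 probe sets.

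Kcne1l was the member called with the block in more than 1 tissue. It encodes a small auxiliary subunit that slows or silences potassium pores of the Kcnq type, and its promoter window is the minus-strand X chromosome sequence shown above. In leg it read 85, 238.6 and 663.4 in mdx and 958.8, 1252.7 and 2077.1 in dko. In extraocular muscle it read 175.2, 83.8 and 522.5 in mdx and 741.4, 409.2 and 1333.2 in dko. In heart it read 76.7, 54.2 and 123 in mdx and 57.5, 71.9 and 46.7 in dko. The leg groups did not overlap, the extraocular groups did, and in both muscles the dko array was above the mdx array of the same number in each of the 3 pairs, while heart was dim in both genotypes.

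The log2 difference of Kcne1l in leg was 1.80 ± 0.444, with a limma adjusted p of 0.3 without the block and 0.00193 with it. In extraocular muscle it was 1.24 ± 0.444 (adjusted p 1 without and 0.0316 with the block), and over the mean of the tissues it was 0.97 ± 0.257 (0.294 and 0.00759). The heart change was smaller than the leg change by 1.95 on the log2 scale, a difference of -1.95 ± 0.629 without the block. It did not pass without the block (limma adjusted p 1) and passed with it (SE 0.234, adjusted p 0.0208). The change in extraocular muscle did not pass as different from that in leg or in heart (adjusted p 0.37 for heart, with the block). None of these calls held with the block when the arrays of any 1 number were left out. The leg difference was then 1.62 without number 1 (adjusted p 0.111), 1.80 without number 2 (0.134) and 1.98 without number 3 (0.0844).

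Clcn3 was called lower in dko leg by 1 of its 4 probe sets, and only with the block. In 94463_at every dko leg array also lay below every mdx leg array, without a call. The genotypes overlapped in 94464_at and 94465_g_at. Clcn3 encodes an endosomal chloride-proton exchanger. Probe set 102786_at read 5090.4, 5659.6 and 5021 in mdx leg and 3654.3, 3163.3 and 2747.1 in dko leg. The groups did not overlap, and the log2 difference was -0.70 ± 0.164 (limma adjusted p 0.242 without the block and 0.0456 with it). In extraocular muscle the arrays read 4589.5 to 5041.5 and in heart 3681.2 to 4789, with both genotypes mixed. With the block the log2 difference was -0.82 without number 1 (adjusted p 0.137), -0.65 without number 2 (0.39) and -0.63 without number 3 (0.212), so that the call was lost while the difference stayed between these values.

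**Figure D4:**
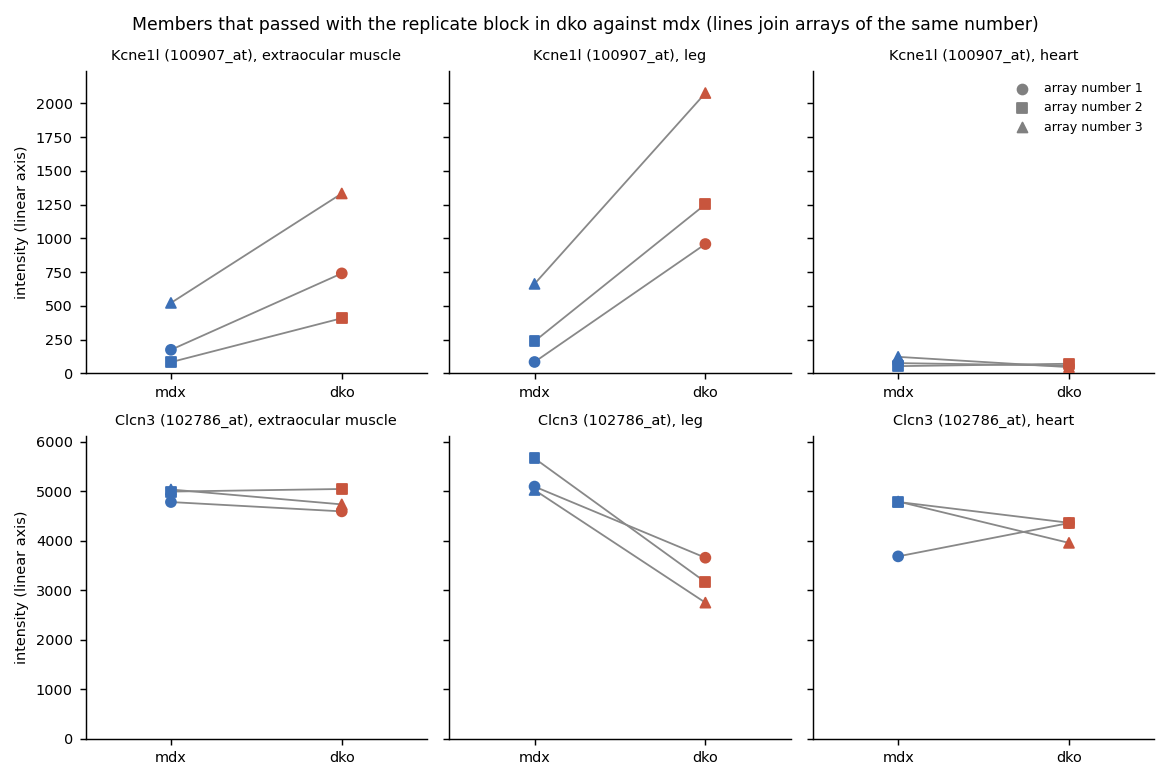
Intensity on a linear axis of Kcne1l (upper row) and Clcn3 102786_at (lower row) in mdx and dko arrays of each tissue, with a line joining arrays of the same number. Kcne1l runs from 85 to 663.4 in mdx and from 958.8 to 2077.1 in dko leg, and Clcn3 from 5021 to 5659.6 in mdx and from 2747.1 to 3654.3 in dko leg.

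Markers of slow fibres had higher sums in every dko than in every mdx leg array. The slow-fibre list summed to 19339.2 to 23891.8 in mdx and 79162.5 to 117849 in dko leg, with 1 of 5 genes called without the block and 5 with it. The embryonic and neonatal myosins Myh3 and Myh8 together summed to 3341.6 to 5268.5 in mdx and 11440.3 to 17567.7 in dko leg. The macrophage list summed to 18933.7 to 38304.1 in mdx and 35643.4 to 68481.5 in dko leg, ranges that overlapped, with 0 of 6 genes called by limma without the block and 1 with it. In extraocular muscle the slow-fibre ranges overlapped, at 84964.7 to 168349 and 88504.3 to 197646, and the macrophage list stood at 12121.4 to 16937.7 in mdx and 33715 to 36760.7 in dko, with 1 of 6 genes called without the block and 2 with it. The part of these cells and fibres in Kcne1l and Clcn3 was not tested.

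The members with the next smallest p-values are given as values only. In leg Kcna7 read 2601, 2559.2 and 3803.4 in mdx and 1571.3, 1809.1 and 1882.8 in dko. Its groups did not overlap, and the log2 difference of -0.70 ± 0.239 did not pass (limma adjusted p 0.515, with the block 0.0713). Kcnj9 (161799_r_at) had differences of -0.53 in leg and 0.48 in heart, and Clcn5 (101913_at) of 0.82 in leg and 1.03 in extraocular muscle. In heart Kcnk1 stood at -0.68, Scn7a at 0.71 and Kcnab2 (102892_at) at 0.62. None of these passed with or without the block. Groups of mdx and dko arrays did not overlap in 3 members in extraocular muscle (5.88%, against 5.65% of all probe sets), 6 in leg (11.8%, against 9.95%) and 3 in heart (5.88%, against 3.92%). The shares of members in extraocular muscle and leg were near those of all probe sets.

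Of the partner genes 0 were called between dko and mdx in any tissue without the block. With it 3 were higher in leg (Atp2a2, Chrna1 and Chrnd), 0 passed in extraocular muscle or heart, and Gja5 was lower over the mean of the tissues. The differences between tissues in the dko change were called by limma for 0 members without the block. In them 1 to 4 members had an unadjusted p under 0.05, beside 124 to 259 of all 8888 probe sets. With the block Kcne1l alone passed, for heart against leg, beside 0.0675% of all probe sets. For extraocular muscle against leg 0 members passed with the block, beside 0.0338%, and 3 had an unadjusted p under 0.05, beside 798 of 8888. For extraocular muscle against heart 0 passed, beside 0%, and 7 had such a p, beside 530 of 8888.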

How the data were processed

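The authors deposited intensity values on a linear scale for 18 Affymetrix arrays, scaled by them, as read from the values, to nearly equal means after 2% was trimmed from each tail (1500.69 to 1501.15). Which software made them was not given in the sources used here. The 66 control probe sets were left out, and gene symbols came from the supplied platform annotation. Probe sets above the 40th percentile of the array in at least 3 of 18 arrays were tested (8888). Before log2 was taken, 166.7 was added to each value (the median over arrays of the 25th percentile). In R 4.3.3, limma 3.58.1 fitted the 6 group means (12 residual and 3.516 prior degrees of freedom), two-sided, with Benjamini-Hochberg adjustment over all tested probe sets. Tissue differences are the mean of the mdx and the dko difference. Values after ± are standard errors of fits without the block, also where a p-value with the block stands beside them.

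Deviations from group means correlated at 0.404 to 0.751 (median 0.61) within the 9 pairs of a dko and an mdx array that share tissue and number. In the 36 pairs that share the number but not the tissue they correlated at 0.327 to 0.74 (median 0.536). These are correlations across genes, which are not independent replicates. The arrays of a number thus share deviations, mostly across tissues as well, which comes from the values and not from the labels. The block was common to all arrays for tissues and within tissue for genotypes. No 2 arrays held identical values. The number of arrays limits the precision. Named were up to 20 called members per tissue comparison, every called member per genotype comparison (or the 5 of smallest p), the brightest member of each family, 30 listed muscle and heart channel genes, of which 22 had a member probe set, and genes whose probe sets disagree. The members and lists were chosen with earlier results of these data known. The fit without the block was tested on simulated data with independent noise on each array and no effect of the array number. That test does not cover the fits with the block or the variation with array number seen here. Plots were made in Python 3.11.15 (matplotlib 3.10.9).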

Additional observations from a re-analysis of the deposited data

Results flagged for a closer look

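Kcne1l (100907_at) is listed because its dko change differed between heart and leg by a test of the difference itself. With the replicate block the heart change minus the leg change was -1.9506 on the log2 scale (SE 0.234, limma adjusted p 0.0208). Without the block the adjusted p was 1, and with the block it was 0.247 to 0.413 when the arrays of any 1 number were left out. In heart the probe set read 46.7 to 123 in all 6 arrays, under the 40th percentile of every array (319.2 to 420.2), so the heart side of the difference is that of a dim probe set. Groups of 3 arrays were too small to look for a single outlying array.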

How the results depend on the processing

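Of 39 member differences called without the block, 22 stayed called in every alternative run that tested the probe set. The other 17 lost the call in at least 1 run, and 0 reversed. The runs varied scaling, offset, filter, variance model, block, left-out arrays and single genotypes. A probe set dropped by the stricter filter, at the 60th percentile, was not counted as lost there. The count for heart against leg was 18, and 11 with mdx arrays only. The count for extraocular muscle against leg was 5, and became 11 with the replicate block, 2 without the arrays numbered 3, and 1 with mdx arrays only or with dko arrays only. For dko against mdx the counts of 0 became 1 in extraocular muscle, 2 in leg, 1 over the mean of the tissues and 1 for heart against leg with the block. Leaving out 1 array at a time gave 15 to 17 members for heart against leg, 4 to 6 for extraocular muscle against leg, 14 to 17 for extraocular muscle against heart and 0 for every genotype comparison. With the block and each number left out in turn, an alternative chosen after seeing the data, the counts were 22 to 24, 5 to 7, 19 to 22 and 0. A further 26 member differences were called with the block only. For extraocular muscle against leg the share of all probe sets called rose too, from 7.74% to 20% with the block. The share in the other runs is not given here. Those counts alone do not show whether a shift was particular to the members. The cause of these shifts was not tested. Dim probe sets limit what could be seen: 33 of 84 members lay below the filter.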

Other observations

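Some members below the filter still differed between tissues, although most of their heart arrays were dim as well. With no filter, Scn10a, a sodium channel of sensory neurons, had log2 differences of 1.18 ± 0.156 (heart from leg, limma adjusted p 5.81e-05) and -1.26 (extraocular muscle from heart, adjusted p 3.87e-05). It read 392.1, 329.6 and 566.1 in mdx heart and 270.4, 381.5 and 418.7 in dko heart, while the other 12 arrays lay between 41.2 and 186.4. The groups did not overlap, although only 2 heart arrays were above the 40th percentile. Kcnj3, a pore subunit of the acetylcholine-gated potassium channel of atrium, read 291.4, 336.1 and 317.9 in mdx and 543.1, 306.5 and 298.4 in dko heart. Only the 543.1 lay above the 40th percentile of its array. Kcnj3 had differences of 0.81 for heart from leg (limma adjusted p 0.0151) and -1.13 for extraocular muscle from heart (adjusted p 0.0016). Its partner Kcnj5 read 108.9, 117.3 and 789.7 in mdx heart and 100.1, 254.5 and 657.8 in dko heart, so that both arrays numbered 3 stood above the others, and its difference from leg of 0.90 was not called (adjusted p 0.0571). The second Kcnd2 probe set, 98364_at, pointed the same way as the first, at 0.65 for heart from leg (adjusted p 0.0202).

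Of the 33 members below the filter, 19 were above the 40th percentile in 0 arrays, 8 in 1 and 6 in 2, and the highest value among them was the 789.7 of Kcnj5. At the other end, 13 members were above it in all 18 arrays. The 5 leak channel probe sets were all tested, and of the 15 inward rectifier probe sets 6 were. For the calcium channel alpha subunits 3 of 8 were tested and for the chloride channels and exchangers 12 of 13.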
